A study of Sus scrofa with 9 samples.

Results

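The genes described here are those of the germ line: genes of the synaptonemal complex, the meiotic chromosome axis and its cohesin, meiotic recombination, the piRNA pathway, germ cell RNA regulators, testis and oocyte factors, cancer-testis antigens and a pair of cyclins. A list of 54 symbols was taken, of which 47 had a row among the 27339 genes of the count table, and the other 7 (MAGEA4, MAGEB1, MAGEB2, MAGEB4, CTAG2, HORMAD2 and NANOS3) are not analysed here. RNA was sequenced from cultured primary myoblasts of Gottingen pigs that carried a transgene switched on by doxycycline. The transgene was human DUX4 in 3 libraries, pig DUXC in 3 libraries and GFP, the control, in 3 libraries, and the question was which genes each factor turns up or down. All 9 libraries, the GFP controls included, came from cells at passages 7 to 9 that had been in 1 µg/mL doxycycline for 16 h. The sources used here do not say whether a line is a clone or a pool, or whether replicates were grown separately. The p-values therefore set each group difference only against the spread of the replicate libraries, and that spread may be technical.

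Germ cells pass through meiosis, in which homologous chromosomes are held by a proteinaceous scaffold, the synaptonemal complex, while DNA breaks are made and repaired by recombination. They also make piRNAs, small RNAs that guide PIWI proteins to transposon transcripts, in granules rich in helicases and tudor-domain proteins. Most of these genes are silent in somatic cells, muscle precursors included, and the roles named below are known from mouse and human. DUX4, which is normally active in cleavage-stage embryos and testis, carries a pair of homeodomains and causes facioscapulohumeral dystrophy when muscle expresses it. DUXC is a pig gene of the same double-homeobox family.

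Germline transcripts were scarce with GFP and were detected for more genes with DUXC. Of the 47 genes, 20 had a read in every GFP library, 25 in every DUX4 library and 34 in every DUXC library. No read at all was counted for 17 genes with GFP, 13 with DUX4 and 5 with DUXC. The same shares over all genes of the table are not given here. Of the 7528 genes with reads but too few for a test, 26.0% were higher in every DUXC library than in any GFP library. In the same sense 2.17% were lower, so a gain of scarce genes with DUXC was not confined to germline genes. SYCE3, SPO11, FIGLA and MAGEA10 had no read in any of the 9 libraries. Levels are given as CPM, counts per TMM-scaled library of standard size. A count of 0 over a group allows up to 3 counts, which at this depth is 0.0253 CPM with GFP, 0.0243 CPM with DUX4 and 0.0253 CPM with DUXC, and such limits and all count intervals cover counting error only.

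Enough reads for a test were present for 22 of the 47 genes. Against GFP, 8 of these 22 rose and 3 fell with DUX4 (36.4% and 13.6%), where 32.9% of all 15956 genes tested rose and 31.9% fell, by an adjusted p at 0.05 in edgeR. With DUXC, 12 rose and 3 fell (54.5% and 13.6%), where 40.2% of all genes tested rose and 42.3% fell. Between the transgenes, 7 were higher and 12 lower with DUX4 than with DUXC (31.8% and 54.5%), beside 40.8% and 41.6% of all genes tested. A change of at least 2-fold that passed was found for 6 genes higher and 1 lower with DUX4 (10.5% and 5.26% of all genes tested), for 9 higher and 1 lower with DUXC (21.3% and 7.97%), and for 5 higher and 8 lower with DUX4 than with DUXC (9.83% and 20.7%). The median log2 fold change of the 22 genes was 0.34 with DUX4 and 0.45 with DUXC, and over all genes tested it was 0.00 and -0.03. With the genes near the floor set to their bounds, the medians of the 22 were 0.19 and 0.45. The list was chosen with earlier results of these data known, so these shares and medians describe the list and do not test it.

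A gene that is scarce with GFP can enter the test only through a group in which it is high. SYCP1, HORMAD1, PIWIL2, TDRD1 and PRAME passed the filter on low counts only through the DUXC libraries, and RAD21L1 only through the DUX4 libraries. BRDT and DDX4 lay under the filter's cutoff in every GFP library and passed through the DUX4 and DUXC libraries. These counts are therefore a description of what passed. Of the 12 genes that lay above the filter's cutoff of 0.250 CPM in all GFP libraries, 3 rose and 2 fell with DUX4, where 32.1% and 36.9% of the 13615 genes of that kind did. With DUXC, 4 of the 12 rose and 3 fell, beside 33.5% and 49.1% of those genes. Between the transgenes, 6 of the 12 were higher and 4 lower with DUX4, beside 46.2% and 36.4%. The plot of levels in each library shows all 22 genes.

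**Figure D1:**
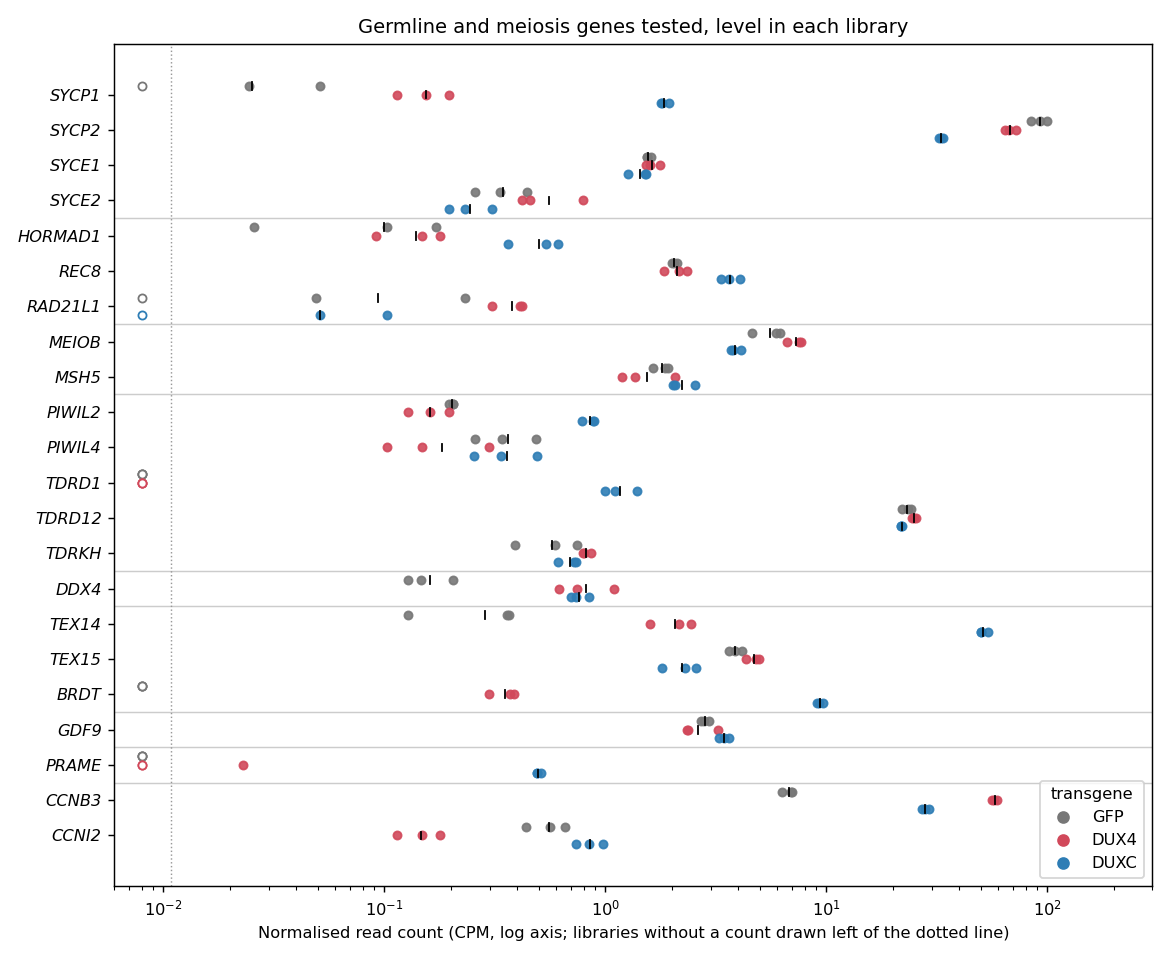
Normalised read count (CPM, log axis) of the 22 germline and meiosis genes tested, with 1 point per library, black ticks for group means and open points left of the dotted line for libraries without a count. TEX14 lies at 0.128 to 0.367 CPM with GFP, 1.60 to 2.44 CPM with DUX4 and 50.1 to 54.1 CPM with DUXC, and TDRD1 has counts in the DUXC libraries alone.

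Total counts were 36580573 to 44420895 per library. The cells were checked against lists of marker genes. The summed level of 8 myoblast markers was 96.6 to 105 CPM with GFP, 123 to 127 CPM with DUX4 and 63.3 to 65.9 CPM with DUXC, and most of it was NCAM1 (86.4 ± 4.25, 105 ± 1.20 and 55.8 ± 1.25 CPM, SD, n = 3). The defining regulators were low: PAX7 lay at 0.402 ± 0.0975 CPM with GFP, 0.568 ± 0.107 CPM with DUX4 and 1.13 ± 0.182 CPM with DUXC, MYF5 at 0.705 ± 0.256, 2.16 ± 0.277 and 1.78 ± 0.286 CPM, and MYOD1 at 1 count over the GFP group. Of the 5 myoblast markers tested, 3 rose and 1 fell with DUX4, beside 32.9% and 31.9% of all genes tested. With DUXC 2 rose and 3 fell, beside 40.2% and 42.3%. PAX7 rose with DUXC and MYF5 with both transgenes, whereas DES fell with both. ITGA7 rose with DUX4 by a log2 fold change of 1.36 and changed by -0.50 with DUXC. The summed level of 8 fibroblast and matrix markers was 62456 to 66675 CPM with GFP, 38495 to 43172 CPM with DUX4 and 37333 to 38193 CPM with DUXC, and 8 of the 8 fell with DUX4 and 7 with DUXC, PDGFRA being the 1 that rose. Markers of cell division summed to 118 to 121 CPM with GFP, 809 to 869 CPM with DUX4 and 365 to 395 CPM with DUXC, and all 8 of them rose with each transgene. Of 10 markers of somatic gonad cells, 4 were tested, and SOX9, GATA4 and HSD3B1 rose with DUX4, while GATA4, HSD3B1 and STAR rose and SOX9 fell with DUXC. These bulk libraries cannot tell fewer cells of a type from less RNA per cell. The part of these markers in the germline results was not tested.

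Among the genes of meiotic entry, the chromosome axis and its cohesin, 3 of 5 were tested, and each of them rose with 1 transgene and not past the threshold with the other. REC8, the kleisin subunit of meiotic cohesin, was at 2.01, 2.05 and 2.10 CPM with GFP, at 1.84, 2.16 and 2.33 CPM with DUX4 and at 3.62, 4.09 and 3.34 CPM with DUXC. Every DUXC library lay above the other 6, and the DUX4 and GFP libraries overlapped. REC8 rose with DUXC by a log2 fold change of 0.84 ± 0.13 (SE, adjusted p = 2.04e-07 in edgeR), and with DUX4 the change was 0.04 (adjusted p = 0.838). The direct comparison of DUX4 with DUXC gave -0.80 ± 0.13 (adjusted p = 4.16e-07).

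HORMAD1, a protein of the unsynapsed chromosome axis and a cancer-testis antigen, was at 0.171, 0.103 and 0.0257 CPM with GFP, at 0.148, 0.0918 and 0.179 CPM with DUX4 and at 0.362, 0.539 and 0.612 CPM with DUXC. The DUXC libraries were again the highest of all. The log2 fold change was 2.29 ± 0.46 with DUXC (adjusted p = 1.34e-05 in edgeR), or 2.91 without GFP replicate 1, and 0.44 with DUX4 (adjusted p = 0.537), and DUX4 was lower than DUXC by -1.85 ± 0.42 (adjusted p = 0.000102).

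RAD21L1, the other meiotic kleisin, showed the opposite order. Its level was 0.0489, 0 and 0.231 CPM with GFP (11 counts in all), 0.418, 0.413 and 0.308 CPM with DUX4 (47 counts) and 0.103, 0 and 0.0510 CPM with DUXC (6 counts). All DUX4 libraries lay above all others, and GFP replicate 3 held most of the GFP counts. RAD21L1 rose with DUX4 by a log2 fold change of 2.00 ± 0.55 (adjusted p = 0.00178 in edgeR), or 3.77 without GFP replicate 3, and was higher with DUX4 than with DUXC by 2.84 ± 0.63 (adjusted p = 0.000103), or 3.78 without DUXC replicate 1. With DUXC the log2 fold change was -0.84 (adjusted p = 0.374), and 0.92 without GFP replicate 3. SMC1B, the meiotic SMC subunit of cohesin, had 2, 1 and 1 counts with GFP, 4, 10 and 0 with DUX4 and 3, 6 and 2 with DUXC. Its lowest DUXC library lay above its highest GFP library on the CPM scale, at the same count of 2, and the DUX4 libraries overlapped with both. STRA8, which starts the meiotic programme in response to retinoic acid, had no count with GFP, 2, 1 and 1 counts with DUX4 and 0, 0 and 1 with DUXC.

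In the synaptonemal complex, the transverse filament gene and a lateral element gene moved apart. SYCP1, which encodes the transverse filament protein that bridges the paired chromosomes, lies on chromosome 4 at 105592354 to 105730413 (Sscrofa11.1). Its level was 0.0245, 0.0514 and 0 CPM with GFP (3 counts), 0.197, 0.115 and 0.154 CPM with DUX4 (19 counts) and 1.78, 1.81 and 1.94 CPM with DUXC (219 counts). The 3 groups did not overlap. The ratio of SYCP1 counts to GFP was 6.10 with DUX4 (95% exact counting interval 1.80 to 32.2, adjusted p = 0.00322 in edgeR) and 73.0 with DUXC (24.6 to 357, adjusted p = 4.74e-18). Without GFP replicate 2 the fitted log2 fold changes, which near the floor depend on the prior count, were 3.33 and 6.88 where they had been 2.47 and 6.02. DUX4 was lower than DUXC by a log2 fold change of -3.55 ± 0.29 (adjusted p = 1.87e-15).

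SYCP2, a lateral element protein, was already expressed with GFP and fell with both transgenes. It was at 92.9, 100.1 and 84.7 CPM with GFP, at 72.4, 64.7 and 67.2 CPM with DUX4 and at 33.0, 32.5 and 33.9 CPM with DUXC, with no overlap between groups. The log2 fold change was -0.44 ± 0.05 with DUX4 (adjusted p = 3.29e-08 in edgeR) and -1.48 ± 0.05 with DUXC (adjusted p = 1.11e-17). SYCP3, the partner of SYCP2 in the lateral element, was too scarce for the test. It had 1, 1 and 0 counts with GFP, none with DUX4 and 6, 9 and 4 with DUXC, and the ratio of its counts between DUXC and GFP was 9.50 (95% exact counting interval 2.29 to 84.1).

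The central element genes did not pass the threshold against GFP. SYCE1 was at 1.57 ± 0.0432 CPM with GFP, 1.64 ± 0.120 CPM with DUX4 and 1.44 ± 0.142 CPM with DUXC (SD, n = 3), and its adjusted p was 0.774 with DUX4 and 0.516 with DUXC in edgeR. SYCE2 was at 0.344 ± 0.0923, 0.557 ± 0.207 and 0.245 ± 0.0560 CPM in the same order, with log2 fold changes of 0.68 with DUX4 (adjusted p = 0.072) and -0.49 with DUXC (adjusted p = 0.247). Without DUX4 replicate 1 the adjusted p of SYCE2 with DUX4 was 0.0387, and without GFP replicate 1 it was 0.0485. Between the transgenes SYCE2 was higher with DUX4 by 1.17 ± 0.36 (adjusted p = 0.00286), a call that did not hold without DUX4 replicate 3 (adjusted p = 0.0522). SYCE1 lies within the span of a locus at 33.2 ± 0.811 CPM with GFP, and SYCE2 overlaps in part with GCDH at 16.1 ± 0.708 CPM, so that reads of those genes may be among theirs.

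Among the recombination genes, MEIOB changed in opposite directions with the transgenes. MEIOB, a single-strand DNA binding protein needed to complete meiotic repair, was at 6.17, 5.93 and 4.59 CPM with GFP, at 7.57, 7.73 and 6.64 CPM with DUX4 and at 3.72, 4.11 and 3.77 CPM with DUXC. The DUX4 libraries were the highest and the DUXC libraries the lowest, with no overlap. MEIOB rose with DUX4 by a log2 fold change of 0.40 ± 0.10 (adjusted p = 0.000428 in edgeR), fell with DUXC by 0.52 ± 0.11 (adjusted p = 2.68e-05) and was higher with DUX4 than with DUXC by 0.92 ± 0.10 (adjusted p = 4.28e-11).

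MSH5, which with MSH4 stabilises crossover intermediates, was at 1.81 ± 0.148 CPM with GFP, 1.54 ± 0.463 CPM with DUX4 and 2.22 ± 0.294 CPM with DUXC (SD, n = 3). It did not pass against GFP with DUX4 (adjusted p = 0.245 in edgeR, and 0.0197 without DUX4 replicate 1) or with DUXC (adjusted p = 0.105). It was lower with DUX4 than with DUXC by a log2 fold change of -0.53 ± 0.17 (adjusted p = 0.00476), a call that did not hold without DUX4 replicate 2 (adjusted p = 0.0725). DMC1, the meiotic recombinase, had 6, 1 and 4 counts with GFP, 3, 1 and 3 with DUX4 and 0, 5 and 3 with DUXC. MSH4 had 1, 3 and 4, then 1, 3 and 2, then 2, 8 and 4 counts in the same order of groups. Both genes overlapped between all groups.

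In the piRNA pathway, 5 of 12 genes were tested. The genes that rose were TDRD1 and PIWIL2, with DUXC, and PIWIL4 fell with DUX4. TDRD1, a tudor-domain protein that binds PIWI proteins in germ cell granules, lies on chromosome 14 at 124526013 to 124575166. It had no count in any GFP or DUX4 library and was at 1.39, 1.10 and 0.994 CPM with DUXC (138 counts), at least 46.0-fold higher than the GFP floor of 3 counts over the group (adjusted p = 2.07e-14 in edgeR) and at least 47.7-fold higher than that of DUX4 (adjusted p = 1.37e-14). PIWIL2, a PIWI protein that binds piRNAs in prospermatogonia and spermatocytes, was at 0.196, 0.205 and 0.205 CPM with GFP, at 0.197, 0.161 and 0.128 CPM with DUX4 and at 0.878, 0.784 and 0.892 CPM with DUXC. Every DUXC library lay above the other 6, while DUX4 and GFP overlapped. The log2 fold change was 2.06 ± 0.32 with DUXC (adjusted p = 1.56e-07) and -0.31 with DUX4 (adjusted p = 0.565), and DUX4 was lower than DUXC by -2.37 ± 0.34 (adjusted p = 1.53e-08).

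PIWIL4, the PIWI protein that enters the nucleus of fetal male germ cells, was at 0.343, 0.488 and 0.257 CPM with GFP, at 0.148, 0.298 and 0.103 CPM with DUX4 and at 0.336, 0.490 and 0.255 CPM with DUXC. DUX4 replicate 2 lay above GFP replicate 3, so the groups overlapped. PIWIL4 fell with DUX4 by a log2 fold change of 0.95 ± 0.43 (adjusted p = 0.0480 in edgeR). That call was lost without DUX4 replicate 1 or 3, GFP replicate 1 or 2 or DUXC replicate 1 or 3 (adjusted p from 0.0505 to 0.237), in DESeq2 (0.110), with its size factors (0.0544), with library size alone (0.0540) and without a filter on low counts (0.0590). The log2 fold change was -1.50 without DUX4 replicate 2. With DUXC the adjusted p was 0.999, and DUX4 against DUXC gave -0.95 ± 0.43 (adjusted p = 0.0383), which was lost in DESeq2 (adjusted p = 0.0667), without a filter (0.0569) and without DUX4 replicate 1 or 3 or DUXC replicate 1 or 2 (0.0535 to 0.222) and was -1.49 without DUX4 replicate 2. PIWIL4 overlaps FUT4, which was at 6.88 ± 0.350 CPM with GFP (SD, n = 3).

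The other tested piRNA genes were expressed with GFP and did not pass against it. TDRD12 was at 23.3 ± 1.10 CPM with GFP, 25.0 ± 0.636 CPM with DUX4 and 22.0 ± 0.131 CPM with DUXC (SD, n = 3), with adjusted p-values of 0.0769 and 0.137 in edgeR. Its difference of 0.19 ± 0.05 on the log2 scale between DUX4 and DUXC (adjusted p = 0.00111) was lost when libraries were scaled by size alone (adjusted p = 0.128). TDRKH, a mitochondrial partner of PIWI proteins in piRNA trimming, was at 0.576 ± 0.177, 0.820 ± 0.0359 and 0.690 ± 0.0678 CPM, with adjusted p-values of 0.0787 with DUX4 and 0.357 with DUXC. Without GFP replicate 3 the adjusted p of TDRKH with DUX4 was 0.0291, and without GFP replicate 2 that of TDRD12 was 0.0424. With DUXC the adjusted p of TDRD12 was 0.0413 without GFP replicate 1 and 0.0339 without a filter on low counts, where it was lower than with GFP.

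The 7 piRNA genes too scarce for the test had most of their reads with DUXC. MOV10L1, the helicase that feeds piRNA precursors into processing, had 1, 0 and 0 counts with GFP, none with DUX4 and 6, 15 and 4 with DUXC, a ratio to GFP of 25.0 (95% exact counting interval 4.09 to 1026). MAEL had 0, 1 and 0 counts with GFP, 0, 0 and 3 with DUX4 and 6, 3 and 6 with DUXC, a ratio to GFP of 15.0 (2.31 to 631). PIWIL1, ASZ1 and GTSF1 had no count with GFP, 1, 2 and 4 counts with DUX4 and 11, 11 and 9 counts with DUXC, which is at least 3.67-fold, 3.67-fold and 3.00-fold above the GFP floor. For all 5 of these genes the lowest DUXC library lay above the highest GFP library. The same held for 26.0% of the 7528 genes of the table with as few counts, so it was not particular to piRNA genes. TDRD5 had 3, 4 and 0 counts with GFP, 3, 3 and 1 with DUX4 and 13, 6 and 3 with DUXC, and TDRD9 had 1, 0 and 0, then none, then 2, 0 and 4, so that GFP and DUXC overlapped for both.

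Among the germ cell RNA regulators, DDX4 rose with both transgenes. DDX4, the VASA helicase that marks germ cells, lies on chromosome 16 at 34879701 to 34983701. It was at 0.147, 0.128 and 0.205 CPM with GFP, at 0.615, 1.10 and 0.744 CPM with DUX4 and at 0.697, 0.735 and 0.841 CPM with DUXC. All libraries with a transgene lay above those with GFP, and those of DUX4 and DUXC overlapped. The log2 fold change was 2.35 ± 0.35 with DUX4 (adjusted p = 9.72e-08 in edgeR) and 2.22 ± 0.36 with DUXC (adjusted p = 2.74e-07). Their difference was 0.12 ± 0.25 (adjusted p = 0.653), and -0.15 without DUX4 replicate 2. DAZL, an RNA-binding protein of germ cells, had 1 count in each DUXC library and none elsewhere. BOLL had 1 count with DUX4 and 3 with DUXC, each in 1 library, and NANOS2 had 1 count, with DUXC.

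Among the testis factors, TEX14 had the largest fitted log2 fold change with DUXC of those of the 22 genes with more than 3 GFP counts. TEX14, which keeps the bridges between dividing germ cells open, lies on chromosome 12 at 34815472 to 34975901. It was at 0.367, 0.128 and 0.359 CPM with GFP, at 1.60, 2.16 and 2.44 CPM with DUX4 and at 50.1, 54.1 and 50.1 CPM with DUXC. The groups were fully separate. TEX14 rose by a log2 fold change of 2.83 ± 0.23 with DUX4 (adjusted p = 6.68e-14 in edgeR) and 7.47 ± 0.12 with DUXC (adjusted p = 1.11e-38), and DUX4 was lower than DUXC by -4.64 ± 0.09 (adjusted p = 8.43e-37).

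BRDT, the testis bromodomain protein that reads acetylated histones, lies on chromosome 4 at 125004897 to 125062208. It had no count with GFP and was at 0.369, 0.298 and 0.385 CPM with DUX4 (43 counts) and at 9.09, 9.67 and 9.25 CPM with DUXC (1110 counts). No library of one group reached those of another. BRDT was at least 13.8-fold higher with DUX4 (adjusted p = 5.42e-09 in edgeR) and at least 370-fold higher with DUXC (adjusted p = 6.78e-32) than the GFP floor, and DUX4 was lower than DUXC by a log2 fold change of -4.73 ± 0.16 (adjusted p = 7.92e-30).

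TEX15, which in mice is needed for meiotic repair and transposon silencing, was at 3.62, 4.16 and 3.85 CPM with GFP, at 4.33, 4.82 and 4.95 CPM with DUX4 and at 1.81, 2.57 and 2.29 CPM with DUXC. The order DUX4, GFP, DUXC held without overlap. TEX15 rose with DUX4 by a log2 fold change of 0.28 ± 0.11 (adjusted p = 0.0282 in edgeR), a call that was lost in DESeq2 (adjusted p = 0.0509) and without DUX4 replicate 2 or 3 or GFP replicate 1 or 3 (0.0604 to 0.118). It fell with DUXC by 0.80 ± 0.13 (adjusted p = 3.17e-07) and was higher with DUX4 than with DUXC by 1.07 ± 0.12 (adjusted p = 8.74e-11). TEX101 had no count with GFP, 1, 0 and 5 counts with DUX4 and 0, 4 and 0 with DUXC, and TEX19 had 1 count, with GFP.

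Of the oocyte genes, 1 of 6 was tested. GDF9, a growth factor that oocytes secrete, was at 2.94, 2.72 and 2.80 CPM with GFP, at 2.34, 3.24 and 2.36 CPM with DUX4 and at 3.44, 3.62 and 3.29 CPM with DUXC. The DUXC libraries lay above all others, and DUX4 and GFP overlapped. GDF9 rose with DUXC by a log2 fold change of 0.29 ± 0.13 (adjusted p = 0.0357 in edgeR), and the call was lost without any 1 of DUXC replicates 1 and 2 and the 3 GFP replicates (adjusted p from 0.0503 to 0.104) and without a filter on low counts (0.0896). With DUX4 the change was -0.09 (adjusted p = 0.591). DUX4 was lower than DUXC by -0.38 ± 0.13 (adjusted p = 0.00728), which was lost without DUX4 replicate 1 (0.0613) or 3 (0.0543).

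BMP15, the partner of GDF9, had 1, 0 and 0 counts with GFP, 1, 2 and 1 with DUX4 and 4, 9 and 8 with DUXC, a ratio of DUXC to GFP of 21.0 (95% exact counting interval 3.38 to 868). ZP4, a protein of the zona pellucida around the egg, had no count with GFP or DUX4 and 2, 9 and 6 counts with DUXC, at least 5.67-fold above the GFP floor. Both genes were thus higher in every DUXC library than in any GFP library, beside 26.0% of the 7528 genes of the table with as few counts. ZP3 had 0, 2 and 1 counts with DUXC and none elsewhere, and ZP2 had 1, 0 and 1 counts with GFP, 0, 1 and 0 with DUX4 and 2, 1 and 2 with DUXC.

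Among the cancer-testis antigens, 2 of 7 were in the table. PRAME, a leucine-rich repeat protein of testis and many tumours, lies on chromosome 14 at 48901097 to 48906855. It had no count with GFP, 1 count in DUX4 replicate 2 and 0.491, 0.490 and 0.510 CPM with DUXC (59 counts). The DUXC libraries stood apart from the other 6. PRAME was at least 19.7-fold higher with DUXC than the GFP floor (adjusted p = 9.11e-10 in edgeR), and the ratio of its counts between DUXC and DUX4 was 61.2 (95% exact counting interval 10.6 to 2458, adjusted p = 2.88e-09), which rests on that 1 count. PRAME belongs to a multigene family, so its reads may be split among near copies.

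The cyclins CCNB3 and CCNI2 both changed with each transgene. CCNB3, a B-type cyclin needed in mouse oocytes for exit from the first meiotic division, lies on chromosome X at 43922729 to 43988939. It was at 6.93, 6.34 and 7.01 CPM with GFP, at 57.6, 59.4 and 56.5 CPM with DUX4 and at 27.3, 27.9 and 29.2 CPM with DUXC. The libraries of the 3 groups were far apart, with DUX4 highest. CCNB3 rose by a log2 fold change of 3.10 ± 0.06 with DUX4 (adjusted p = 3.35e-41 in edgeR) and 2.06 ± 0.06 with DUXC (adjusted p = 5.59e-33), and the difference between the transgenes was 1.04 ± 0.05 (adjusted p = 5.44e-26). Of the 8 cell division markers, 7 were also higher with DUX4 than with DUXC, and the exception was TOP2A, at 220 ± 12.2 CPM with DUX4 and 221 ± 10.3 CPM with DUXC (adjusted p = 0.895). MKI67 was at 14.5 ± 0.664 CPM with GFP, 136 ± 7.18 CPM with DUX4 and 25.4 ± 0.766 CPM with DUXC (SD, n = 3). The part of these markers in the change of CCNB3 was not tested.

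CCNI2 lies on chromosome 2 at 135074153 to 135077171. It was at 0.661, 0.565 and 0.436 CPM with GFP, at 0.148, 0.115 and 0.179 CPM with DUX4 and at 0.981, 0.735 and 0.841 CPM with DUXC. DUX4 was lowest and DUXC highest, without overlap. CCNI2 fell with DUX4 by a log2 fold change of 1.904 ± 0.38 (adjusted p = 2.24e-05 in edgeR) and rose with DUXC by 0.61 ± 0.27 (adjusted p = 0.0315). The rise with DUXC was lost in DESeq2 (adjusted p = 0.0565), without a filter on low counts (0.0643) and without DUXC replicate 1 or 3 or GFP replicate 2 or 3 (0.0574 to 0.143). DUX4 was lower than DUXC by -2.52 ± 0.35 (adjusted p = 8.6e-09). CCNI2 overlaps the end of SEPT8, which was at 165 ± 0.774 CPM with GFP, 154 ± 3.10 CPM with DUX4 and 86.1 ± 1.28 CPM with DUXC.

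**Figure D2:**
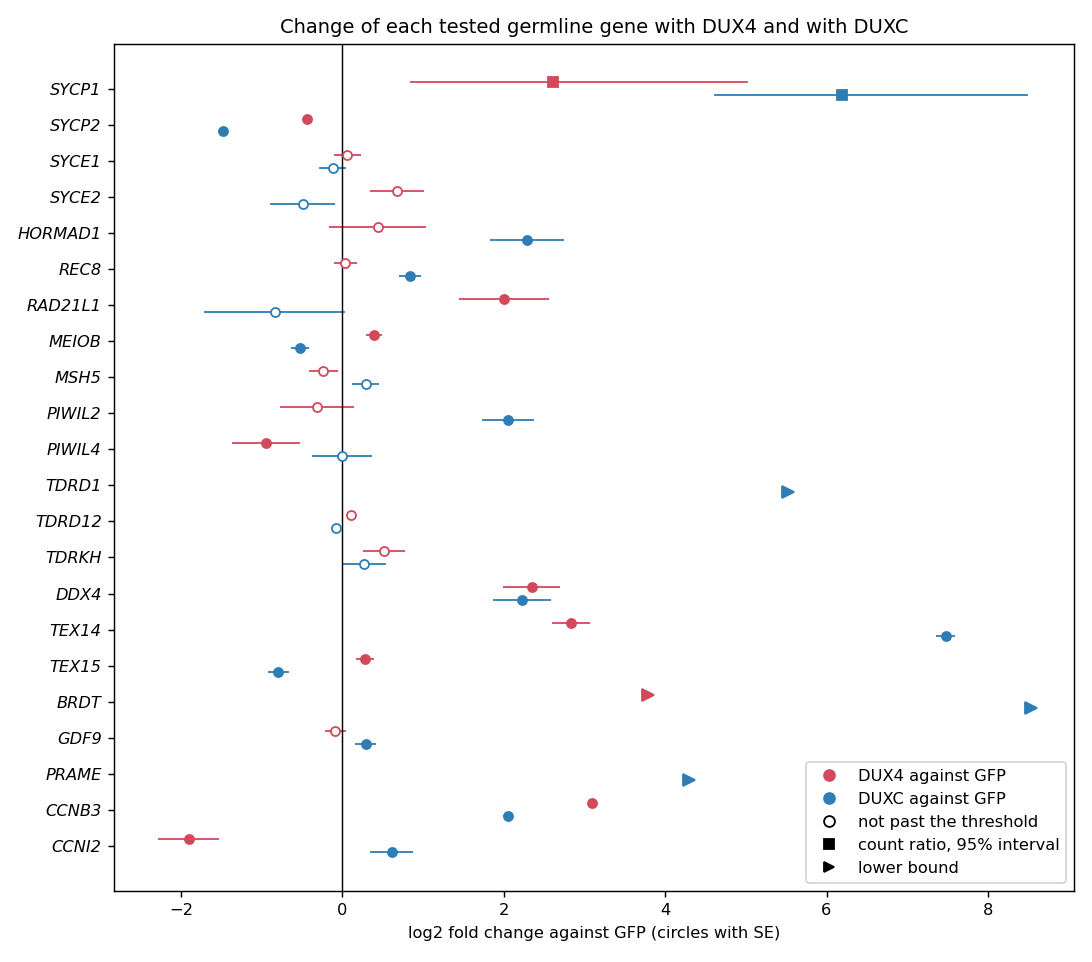
log2 fold change against GFP of the 22 tested germline and meiosis genes with DUX4 and with DUXC: circles are fitted values with their SE (open where not past the threshold), squares are count ratios with 95% counting intervals and triangles are lower bounds. TEX14, at 7.47 with DUXC and 2.83 with DUX4, and CCNB3, at 2.06 and 3.10, stand in opposite orders, and TDRD1 and PRAME have no value for DUX4, where both groups were at or under the floor.

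Set side by side, and with the GFP libraries shared by both comparisons, 5 genes rose with both transgenes (CCNB3, SYCP1, TEX14, BRDT and DDX4) and SYCP2 fell with both. MEIOB and TEX15 rose with DUX4 and fell with DUXC, and CCNI2 did the reverse. Those that rose with DUXC and did not pass with DUX4 were HORMAD1, REC8, PIWIL2, TDRD1, GDF9 and PRAME. All 6 were lower with DUX4 than with DUXC in the direct test, which uses the same DUXC libraries and is no separate support. HORMAD1, PIWIL2, TDRD1 and PRAME had passed the filter only through those libraries, and so had SYCP1 among the 5 genes that rose with both transgenes. BRDT and DDX4, also among the 5, lay under the filter's cutoff in every GFP library and entered through the DUX4 and DUXC libraries. Both GDF9 calls were lost when certain single libraries were left out. RAD21L1 rose and PIWIL4 fell with DUX4 without passing with DUXC. The genes that passed neither against GFP were SYCE1, SYCE2, MSH5, TDRD12 and TDRKH.

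On the CPM scale, 10 of the 21 scarce genes with at least 1 count were higher in every DUXC library than in any GFP library and none was lower, where 26.0% and 2.17% of the 7528 genes of the table with as few counts were. The 10 include DAZL, at 1 count in each DUXC library and none with GFP. They also include SMC1B, whose lowest DUXC library and highest GFP library both held 2 counts. With DUX4, STRA8 and BMP15 were higher than GFP in this sense and none was lower, beside 6.79% and 3.47% of those genes. Between the transgenes, none was higher with DUX4 and 8 were lower, beside 3.03% and 22.3%. When no filter on low counts was applied in edgeR, 9 of the 21 passed with DUXC against GFP, all higher (MOV10L1, ZP4, BMP15, ASZ1, SYCP3, PIWIL1, MAEL, GTSF1 and TDRD5, with adjusted p-values from 0.000122 to 0.0442), where 32.8% of all genes in that fit rose and 30.6% fell. None of the 21 passed with DUX4 against GFP in that fit, where 23.2% of all genes rose and 21.9% fell. Between the transgenes 8 of the 21 were lower with DUX4 and none higher, beside 32.1% and 29.6% of all genes. The shares from this fit are over all its 23484 genes. Most of those genes pass the filter on low counts and the 21 do not, so the shares are not a like baseline for them. Shares of scarce genes alone were not taken from this fit.

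**Figure D3:**
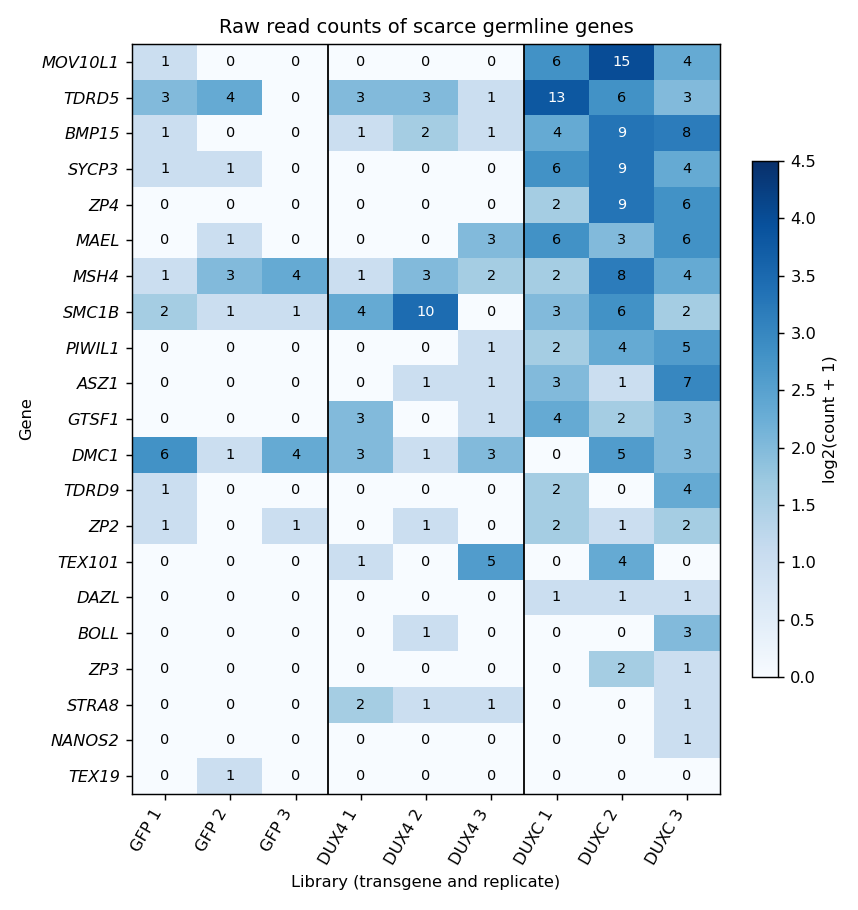
Raw read counts of the 21 scarce germline and meiosis genes with at least 1 count (rows), in each of the 9 libraries (columns), shaded by log2(count + 1) and ordered by their sum with DUXC. MOV10L1 has 6, 15 and 4 counts in the DUXC libraries beside 1 count over all GFP and DUX4 libraries, while DMC1 and SMC1B have counts spread over all groups.

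The germline genes are scattered over 15 assembled chromosomes of Sscrofa11.1, with 3 on chromosome X, and the pairs that lie within a megabase are CCNI2 and GDF9 (104 kb apart), SYCE3 and MOV10L1 (309 kb) and CCNB3 and BMP15 (624 kb). Some of their nearest tested neighbours changed in the same direction and others did not. RAD51C, a repair gene that starts 48 bp from TEX14, was at 3.54 ± 0.0969 CPM with GFP, 7.35 ± 0.865 CPM with DUX4 and 2.78 ± 0.129 CPM with DUXC (SD, n = 3), so it fell with DUXC (log2 fold change -0.35, adjusted p = 0.00857 in edgeR) where TEX14 rose. SEPT4, at 30296 bp on the other side of TEX14, was at 0.194 ± 0.0550, 0.152 ± 0.0893 and 2.96 ± 0.425 CPM in the same order and rose with DUXC (adjusted p = 1.2e-18).

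Beside PRAME, the locus LOC110256677 at 12959 bp had no count with GFP and was at 9.41 ± 0.380 CPM with DUX4 and 307 ± 12.0 CPM with DUXC (SD, n = 3). IL31RA, a cytokine receptor gene 3698 bp from DDX4, had no count with GFP and was at 0.290 ± 0.0471 CPM with DUX4 and 0.679 ± 0.171 CPM with DUXC. DGKK, a diacylglycerol kinase gene 12233 bp from CCNB3, was at 0.0334 ± 0.0290, 0.135 ± 0.157 and 2.51 ± 0.225 CPM with GFP, DUX4 and DUXC, an order that differs from that of CCNB3. Of the 47 genes, 16 (34.0%) overlap the span of another gene. Among the scarce ones, SMC1B overlaps FAM118A (29.4 ± 1.14 CPM with GFP), SYCP3 overlaps CHPT1 (10.3 ± 0.747 CPM) and ZP2 overlaps TMEM159 (26.9 ± 0.553 CPM). Reads of FAM118A, CHPT1 and TMEM159 may be among the few counts of these 3 genes. With DUXC the log2 fold changes of FAM118A, CHPT1 and TMEM159 were -0.05, -0.75 and 0.65.

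Further germline genes, from lists that hold none of the 54 symbols, moved in part, and the shares of all genes tested to read their counts against are 32.9% higher and 31.9% lower with DUX4 and 40.2% higher and 42.3% lower with DUXC. Here too a gene that is scarce with GFP can enter the test only through a group in which it is high. Rises of such genes are therefore a description of what passed. Of 12 further meiosis genes tested, 2 rose and 3 fell with DUX4 and 5 rose and 2 fell with DUXC, so the share that rose with DUXC was near that of all genes. STAG3, the meiotic stromal antigen of cohesin, was at 1.00 ± 0.177 CPM with GFP, 3.26 ± 0.181 CPM with DUX4 and 1.79 ± 0.412 CPM with DUXC (SD, n = 3), and rose by log2 fold changes of 1.70 and 0.83. The other gene to rise with DUX4 was YTHDC2 (0.22), and those to fall were CCNB1IP1 (-0.22), TERB1 (-0.30) and HSF2BP (-0.25). MAJIN, TERB1, MEIOC and YTHDC2 also rose with DUXC, by 0.90, 0.25, 1.23 and 0.36, and HFM1 and HSF2BP fell, by 0.85 and 0.29.

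Of 7 further piRNA genes tested, 3 rose and 1 fell with DUX4, and 3 rose and 2 fell with DUXC, beside 32.9% and 31.9%, and 40.2% and 42.3%, of all genes tested. HENMT1, the methyltransferase that modifies the ends of piRNAs, was at 0.0929 ± 0.0540 CPM with GFP, 6.15 ± 1.96 CPM with DUX4 and 36.5 ± 1.67 CPM with DUXC (SD, n = 3), log2 fold changes of 6.002 (adjusted p = 4.77e-05 in edgeR) and 8.58 (adjusted p = 3.13e-07). RNF17, a tudor-domain protein of spermatids, had the reverse order, at 0.395 ± 0.0662, 10.8 ± 0.680 and 0.840 ± 0.146 CPM, with log2 fold changes of 4.75 with DUX4 and 1.08 with DUXC. MYBL1, the transcription factor that activates piRNA clusters and meiotic genes in mouse spermatocytes, rose with DUX4 by 1.26 and fell with DUXC by 0.66. TDRD7 fell with both (by 0.64 and 0.26), and GPAT2 rose with DUXC, a count ratio of 26.7 (95% exact counting interval 8.80 to 132). GPAT2 had 3 counts with GFP and 2 with DUX4, so it entered the test only through the DUXC libraries.

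Of 17 further oocyte genes in the table, 3 were tested. ZAR1, which is needed for the transition from egg to embryo, rose with DUX4, a count ratio of 7.71 (95% exact counting interval 1.03 to 342), and with DUXC, a ratio of 376 to 1 GFP count (67.1 to 14888). ZAR1L rose with DUXC by a log2 fold change of 3.84 and was at an adjusted p of 0.259 with DUX4 in edgeR. The mean levels of ZAR1 and ZAR1L with GFP and with DUX4 lay under the filter's cutoff of 0.250 CPM. Both genes therefore entered the test only through the DUXC libraries. NLRP5, the other gene tested, passed with neither transgene (adjusted p = 0.579 with DUX4 and 0.825 with DUXC). Of 9 spermatid genes tested, ODF2, ZPBP2 and LDHC rose with DUX4, by 0.37, 1.08 and 1.94, and none fell. ACRV1, CATSPER1 and LDHC rose with DUXC, ACRV1 to at least 19.3-fold above the GFP floor and the others by 2.83 and 1.75, while ODF2 and IZUMO1 fell by 0.53 and 0.62. ACRV1 had no count with GFP or DUX4 and entered the test only through the DUXC libraries.

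Meiosis genes listed as shared with dividing cells mostly rose. All 18 of them were tested, and 18 rose with DUX4 and 15 with DUXC (32.9% and 40.2% of all genes tested), with median log2 fold changes of 1.92 and 0.87. SGO2, which guards centromeric cohesin, was at 7.999 ± 0.0593 CPM with GFP, 51.6 ± 2.43 CPM with DUX4 and 13.0 ± 0.0497 CPM with DUXC (SD, n = 3). EXO1 rose by 2.91 and 1.58, BRCA1 by 1.47 and 1.52, and SGO1 by 2.98 and 1.71. MRE11 and RAD50 fell with DUXC, by 0.76 and 0.54, and MND1 was at 0.24 with DUXC (adjusted p = 0.191 in edgeR). The 8 cell division markers had median log2 fold changes of 2.82 with DUX4 and 0.89 with DUXC, and their part in these changes was not tested.

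Somatic counterparts of the germline genes rose for 13 of 16 with DUX4 (median log2 fold change 0.34) and for 9 of 16 with DUXC (0.13), where 32.9% and 40.2% of all genes tested rose, while STAG2 and CCNI were the 2 that fell with DUX4 and 6 fell with DUXC. CCNB1, the mitotic counterpart of CCNB3, rose by 2.97 and 0.97, and CCNB2 by 2.81 and 0.69, and MAD2L1 rose by 1.94 and 4.03. In the further cancer-testis list, 6 of 11 rose with DUX4 and 7 with DUXC (32.9% and 40.2% of all genes tested), among them TTK (3.21 and 1.09), ATAD2 (2.05 and 1.43) and KIF20B (1.86 and 0.43), which are also genes of dividing cells. IGF2BP3 and SSX2IP rose with DUXC, by 1.20 and 0.65, and did not pass with DUX4 (adjusted p = 0.101 and 0.549 in edgeR). LIN28B, at 2 counts with GFP, 101 with DUX4 and 12 with DUXC, rose with both. It entered the test only through the DUX4 libraries. The part of cell division in the changes of this list was not tested. SPAG9 was the gene of that list to fall, by 0.14 and 0.36.

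Of 16 factors that silence germline genes in somatic cells, 9 rose and 5 fell with DUX4 (median log2 fold change 0.11) and 4 rose and 9 fell with DUXC (-0.13). Of all genes tested, 32.9% rose and 31.9% fell with DUX4, and 40.2% rose and 42.3% fell with DUXC. DNMT1, the maintenance DNA methyltransferase, was at 66.0 ± 2.41 CPM with GFP, 134 ± 0.453 CPM with DUX4 and 42.5 ± 1.16 CPM with DUXC (SD, n = 3), log2 fold changes of 1.03 and -0.63. UHRF1, which brings DNMT1 to replicated DNA, changed by 2.91 and -0.27. The part of the cell division markers in the changes of DNMT1 and UHRF1 was not tested. TRIM28 changed by 0.50 with DUX4 and by -0.08 with DUXC. PCGF6, a subunit of a Polycomb complex that represses germline genes in mouse stem cells, fell with DUX4 by 0.40 and rose with DUXC by 0.97. MGA, RING1, DNMT3A and SETDB1 fell with DUX4 as well, and E2F6, MGA and KDM5C rose with DUXC.

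Of 6 primordial germ cell factors tested, 1 rose and 1 fell with DUX4, beside 32.9% and 31.9% of all genes tested. With DUXC 4 rose and 1 fell, beside 40.2% and 42.3%. TFAP2C rose with both transgenes, from 0.0762 ± 0.0269 CPM with GFP to 1.60 ± 0.0810 CPM with DUX4 and 2.55 ± 0.216 CPM with DUXC (SD, n = 3), log2 fold changes of 4.34 and 5.02. KIT fell with both, by 0.71 and 0.74. PRDM1 rose with DUXC by 2.97, DPPA3 by a count ratio of 147 (95% exact counting interval 40.3 to 1219) and NANOG to at least 34.3-fold above the GFP floor, and NANOG had no count with DUX4. DPPA3 and NANOG entered the test only through the DUXC libraries. DND1 passed with neither transgene (adjusted p = 0.605 and 0.957 in edgeR). Too scarce for the test were POU5F1 (14, 23 and 15 counts with GFP, DUX4 and DUXC), SOX17 (9, 8 and 20), PRDM14 (0, 5 and 8) and TFCP2L1 (0, 1 and 1). Of 6 defining germ cell markers (DDX4, DAZL, MAEL, SYCP3, TDRD1 and PIWIL2), the summed level was 0.367 to 0.411 CPM with GFP, 0.812 to 1.26 CPM with DUX4 and 2.94 to 3.31 CPM with DUXC. DAZL and TDRD1 had no count with GFP, DAZL, TDRD1 and SYCP3 had none with DUX4, and all 6 had a count with DUXC. DAZL had 3 counts over the DUXC group, which is no more than the floor of 3 counts. All 6 belong to the germline genes described first, so they are no separate support. TDRD1 and PIWIL2 passed the filter only through the DUXC libraries, and DDX4 lay under its cutoff in every GFP library. SYCP2, MEIOB and TEX15, which fell with DUXC, are not among the 6. The same detection over all genes is not given here.

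**Figure D4:**
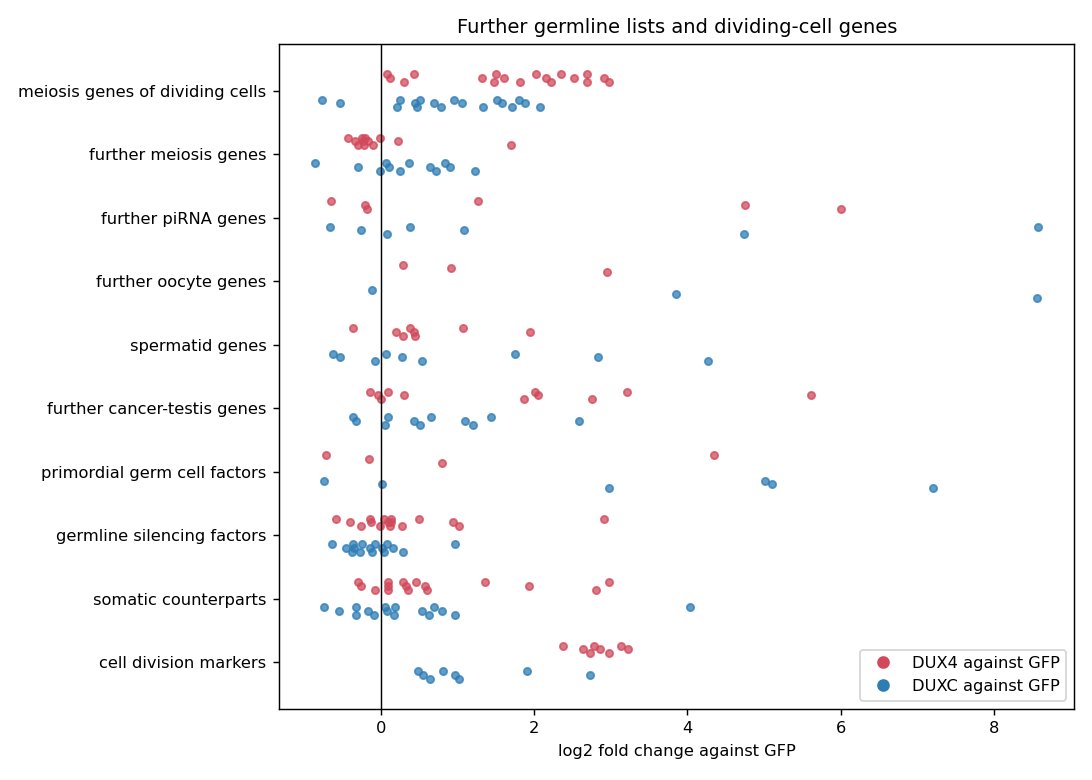
log2 fold change against GFP with DUX4 and with DUXC for the tested genes of 9 further lists and of the cell division markers, with 1 point per gene and genes near the floor drawn at their bound or count ratio. The meiosis genes listed as shared with dividing cells and the cell division markers lie to the right with DUX4 (medians 1.92 and 2.82), while the further meiosis genes lie on both sides of 0.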

How the data were processed

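Raw read counts per gene were used as deposited by the authors, who per the submitters' processing notes called bases with CASAVA 1.9, trimmed with Trim Galore, used build Sscrofa11.1 and counted with featureCounts; the file headers name Subread. The library kit was stranded for mRNA per the labels' protocols. The sources used here give neither annotation release nor strand setting, so reads of overlapping genes may not be separated. All 9 libraries (36580573 to 44420895 counts) entered a single group model in edgeR 4.0.16 under R 4.3.3, with TMM factors (0.960 to 1.06), filterByExpr (15956 of 27339 genes kept), the robust quasi-likelihood F test (two-sided) and Benjamini-Hochberg adjustment over all genes tested. CPM use TMM-scaled library sizes. The SE is the size of the log2 fold change divided by the square root of F. Folds against a group without counts are bounds at 3 counts over the group, and those against 1 to 3 counts are ratios with 95% exact (Clopper-Pearson) counting intervals. No permutation test was used, since its smallest exact p for 3 against 3 libraries is 0.1. Libraries of a group differed beyond sampling noise (chi-square per degree of freedom 2.62 to 17.9). Alternatives were DESeq2 1.42.0, its size factors, library size alone, limma-voom (limma 3.58.1), no filter, a filter of 1 CPM in 3 libraries, 2 groups alone, a replicate block and leaving out each library. The pipeline was tested on simulated data. Positions are from RefSeq for Sscrofa11.1, in which 26838 symbols (98.2%) and all 47 genes matched. Promoter sequences were not analysed here. The members and lists were chosen with earlier results of these data known. Values per library are given for genes called against GFP, other tested genes by group, and untested ones by raw counts; from each further list up to 4 called genes with the smallest p are named, with any in a count of 5 or fewer.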

Additional observations from a re-analysis of the deposited data

Results flagged for a closer look

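MEIOB, TEX15 and CCNI2 passed the threshold in opposite directions with the transgenes against GFP, and the direct test of DUX4 against DUXC passed for each in edgeR. The log2 difference of DUX4 from DUXC was 0.92 for MEIOB (5.56 ± 0.849 CPM with GFP, 7.32 ± 0.590 CPM with DUX4 and 3.87 ± 0.214 CPM with DUXC, SD, n = 3). For TEX15 it was 1.07 (3.88 ± 0.270, 4.70 ± 0.327 and 2.22 ± 0.387 CPM in the same order). For CCNI2 it was -2.52 (0.554 ± 0.113, 0.147 ± 0.0324 and 0.852 ± 0.124 CPM).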

How the results depend on the processing

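Of the calls made for the 22 tested genes, 9 of 11 with DUX4 against GFP, 13 of 15 with DUXC against GFP and 14 of 19 between the transgenes held under every alternative in which the gene was tested. Values that changed sign were not past the threshold in the settings that turned them, and the cause was not tested: REC8 with DUX4 was -0.034 without DUX4 replicate 3 (range leaving out a library to 0.125), RAD21L1 with DUXC was 0.92 without GFP replicate 3 (range from -1.77), DDX4 between the transgenes was -0.15 without DUX4 replicate 2 (range to 0.31), and with library size alone SYCE1 and TDRD12 with DUXC were 0.0035 and 0.042. PIWIL4 with DUXC was 0.072 in DESeq2, 0.076 with its size factors, 0.12 with library size alone, 0.050 with the 2 groups alone and -0.29 to 0.26 leaving out a library, above 0 without DUXC replicate 1, DUXC replicate 3 or GFP replicate 2. Library size alone moved the median of all genes with DUXC from -0.03 to 0.09. Fewer genes pass the stricter filter (13 of the 22), which left 1 gene lower with DUX4 (3 before), 7 higher with DUXC (12 before) and 7 lower between the transgenes (12 before); without a filter the last 2 counts were 19 and 19. The median with DUX4 was 0.10 without a filter, 0.11 with the stricter one and 0.29 with the 2 groups alone, and 0.18 to 0.39 leaving out a library. With DUXC it was 2.01 without a filter, 0.66 with the 2 groups alone and 0.39 to 0.67 leaving out a library, and between the transgenes -1.31 without a filter. Replicate numbers do not pair the libraries: residuals of same-numbered libraries correlated at -0.11 to 0.14 over 11610 genes, and not every library correlated best with its own number. With the replicate block the counts stayed at 8 higher and 3 lower with DUX4, 12 and 3 with DUXC and 7 and 12 between the transgenes. MSH5 with DUXC passed with DESeq2's size factors (adjusted p = 0.0409), library size alone (0.0221) and the 2 groups alone (0.0386), and TDRD12 with DUX4 passed with the first of these (0.0271) and library size alone (0.0294). TDRD12 with DUXC passed, as lower, without a filter (0.0339) and without GFP replicate 1 (0.0413). Genes under 3 counts in a group are limited by depth.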
